A study of Mus musculus with 24 samples.

Results

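The contractile smooth muscle genes described here are 3 actins (Acta1, Acta2, Actg2), 2 tropomyosins (Tpm1, Tpm2), transgelin (Tagln), calponin (Cnn1), myosin light chain kinase (Mylk), the smooth muscle myosin heavy chain (Myh11) and Mustn1. They are 10 of the 16593 genes named on the array, and were found by gene symbol in the platform annotation, which pairs them with 17 of the 25697 probes of the intensity table. Acta2 has 4 probes, Tpm2 has 3, Mylk and Mustn1 have 2 each, and the other genes have 1. A probe was tested if it was detected, at a detection p under 0.01, on at least 4 of the 24 arrays, and 12 probes of 7 genes met this, out of 11139 probes in all.

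The cells were primary vascular smooth muscle cells from the carotid artery of male C57bl6 mice. The 5 groups profiled were wild-type cells (5 arrays), cells lacking the plasma membrane calcium pump PMCA4 (knockout, 5 arrays), and knockout cells electroporated with DNA for the pump's splice form PMCA4b (5 arrays), with vector A (5 arrays) or with vector B (4 arrays). PMCA4b and vector cells thus all carry the knockout, and the wild-type and knockout cells are not labelled as electroporated. In every group the cells were synchronized, given serum and platelet-derived growth factor BB (PDGF-BB), and collected at late G1/S, just before or at the start of DNA synthesis. The labels do not say how the knockout was made, how the vectors differ, or if the arrays of a group came from separate mice or cultures, and p-values here measure only the spread between arrays, which may be technical. The number of arrays limits the precision, and the median within-group SD over the tested probes was 0.131 on the log2 scale. Between 9496 and 10406 probes were detected on each array.

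In a resting artery, smooth muscle alpha-actin (the product of Acta2) and smooth muscle myosin slide past each other when calcium and calmodulin switch on myosin light chain kinase, while tropomyosin, calponin and transgelin lie along the actin filament. Dividing smooth muscle cells in culture, above all after serum and PDGF, keep little of this machinery. Many of these genes carry a CArG box, the site bound by serum response factor (SRF), whose partners of the myocardin family respond to the state of the actin filaments.

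Promoters are shown for 3 members. Acta1 and Acta2 differed widely between the groups, though Tagln and Mustn1 probe 1 differed more, and Tpm1 was the tested member whose group means differed least. Promoter windows matched 7 of the 10 genes (Acta1, Acta2, Cnn1, Mylk, Tpm1, Tpm2 and Mustn1) in a RefSeq table of build GRCm38.p6, each with 250 bases before and 50 after the gene start the table gives. The 250 bases before that start are printed 5′ to 3′ along the gene for Acta1 (chr8:123894776-123895025, minus strand), Acta2 (chr19:34255374-34255623, minus strand) and Tpm1 (chr9:67049214-67049463, minus strand). Capitals mark matches to the CArG box, to a CArG box with 1 inner letter changed to C or G, to TATAAA, and to CATTCC, the core of the muscle CAT element, with both strands searched.
Acta1: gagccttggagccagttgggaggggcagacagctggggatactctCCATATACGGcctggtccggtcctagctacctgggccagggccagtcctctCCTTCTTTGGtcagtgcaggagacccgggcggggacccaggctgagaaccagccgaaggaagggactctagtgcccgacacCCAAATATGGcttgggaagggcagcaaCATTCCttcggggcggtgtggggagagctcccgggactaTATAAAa
Acta2: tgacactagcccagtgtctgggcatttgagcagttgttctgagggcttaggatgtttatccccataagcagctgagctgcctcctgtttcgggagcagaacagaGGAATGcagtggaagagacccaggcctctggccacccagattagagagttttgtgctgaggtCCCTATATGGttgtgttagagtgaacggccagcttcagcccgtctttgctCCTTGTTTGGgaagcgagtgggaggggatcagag
Tpm1: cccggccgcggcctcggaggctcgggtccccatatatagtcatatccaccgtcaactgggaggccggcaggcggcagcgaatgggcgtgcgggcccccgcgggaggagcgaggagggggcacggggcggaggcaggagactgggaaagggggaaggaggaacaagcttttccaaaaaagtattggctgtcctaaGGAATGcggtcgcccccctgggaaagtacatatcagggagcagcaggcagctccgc
Among the 7 windows the strict CArG box was matched in Acta1 alone, starting 73 bases before the start, and 1.63% of all 32851 windows in the table hold one. The form with 1 changed inner letter was matched in Acta1 (205 and 154 bases before) and in Acta2 (84 and 34 bases before), against 8.5% of all windows. TATAAA was matched in Acta1 (13.6% of all windows), and CATTCC in Acta1, Acta2, Mylk, Tpm1 and Mustn1 (14.7% of all windows). The window of Mustn1, whose probe 1 averaged 5.30 with vector A and 10.46 in knockout cells, held no CArG box of either form. The printed promoters thus do not stand for all members that differed widely, and a link between these letters and the differences was not tested. No motif searched overlapped another in these windows. Distances are from the start in the table, which for Acta1 and Acta2 lies close to or before the TATA-like letters, so they are not distances from a measured transcription start. A match describes letters only, and no binding was measured.

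Against its label as smooth muscle, the material held part of the programme. All 4 Acta2 probes, Tpm1 and Tpm2 probe 1 were detected on all 24 arrays, as was smoothelin (Smtn), an actin-binding protein of contractile muscle. Cnn1, Myh11, leiomodin (Lmod1) and desmin (Des) were detected on 0 of 24 arrays, and the 2 Mylk probes on 1 and 0 arrays. These are array readings near background and give only an upper bound on the RNA. In bulk RNA, fewer cells of a type and less RNA per cell cannot be told apart.

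**Figure D1:**
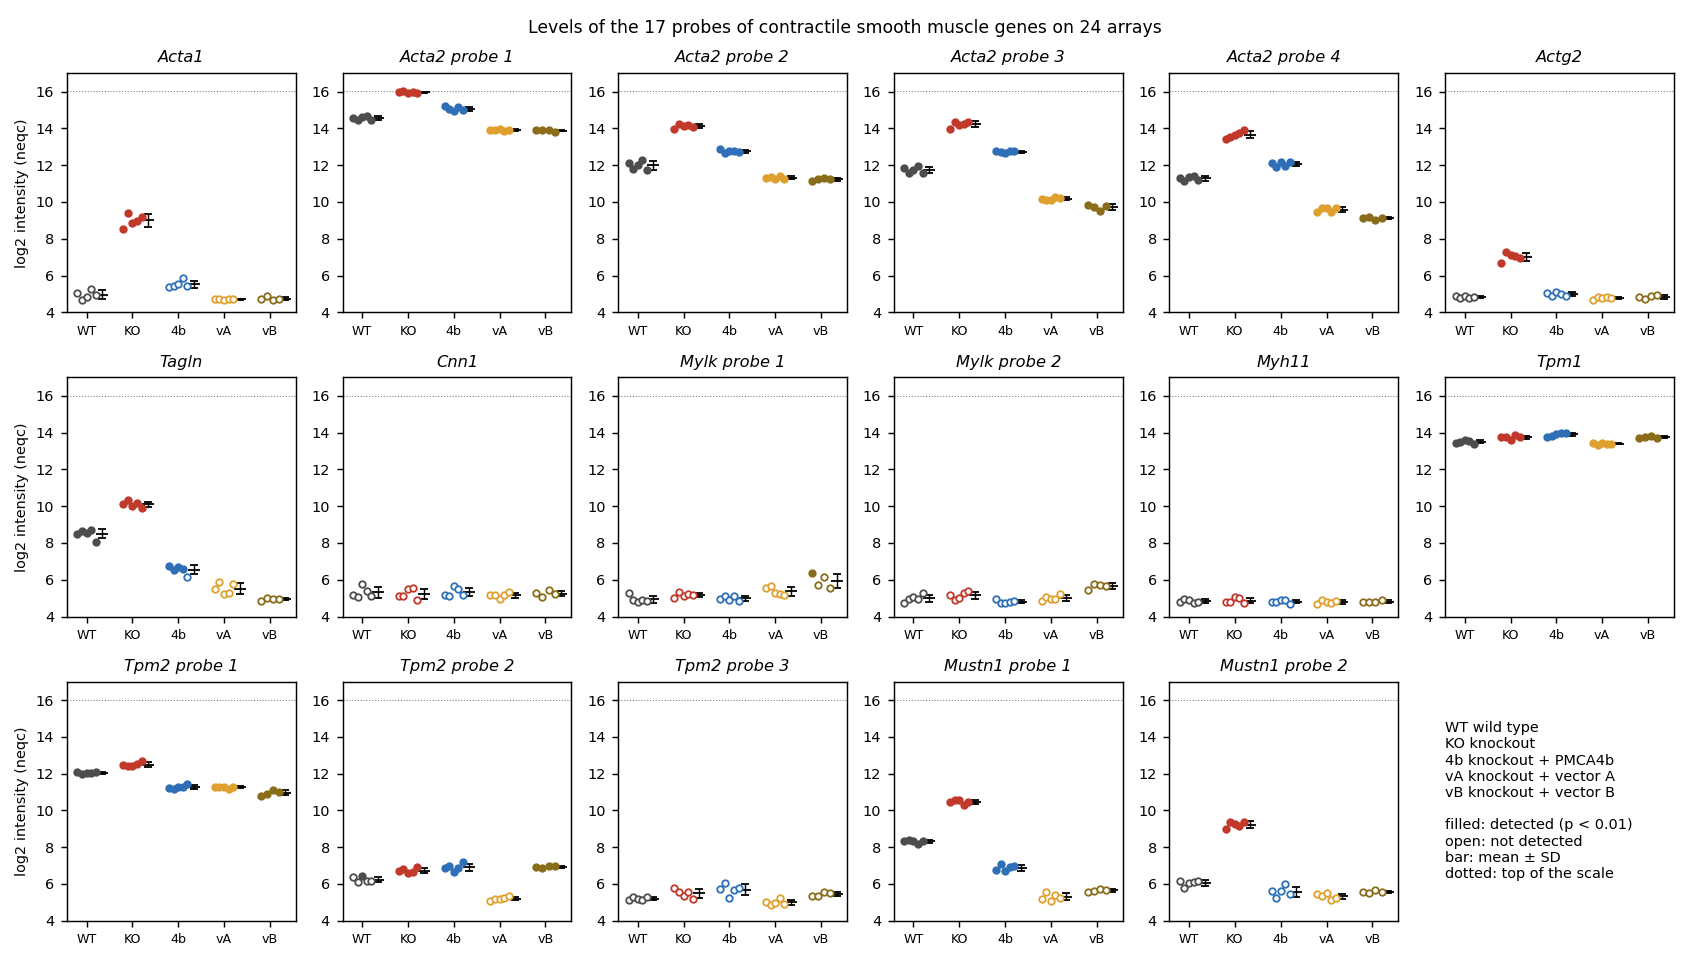
Levels of the 17 probes, in log2 intensity after neqc normalization, on each of the 24 arrays, by group (WT wild type, KO knockout, 4b PMCA4b, vA vector A, vB vector B). Filled points are detected arrays, open points undetected ones, bars are the mean ± SD, and the dotted line is the top of the scale at 16.016. Knockout arrays lie highest for the actins, Tagln and Mustn1, and the Cnn1 and Myh11 panels hold open points only.

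Acta2 encodes alpha-actin, the main actin of smooth muscle. All 4 of its probes put the groups in the same order: knockout, PMCA4b, wild type, and the vectors lowest. In replicate order 1 to 5, probe 3 read 11.85, 11.57, 11.75, 11.94 and 11.59 on the log2 scale in wild-type cells. It read 13.97, 14.34, 14.17, 14.27 and 14.36 in knockout cells. It read 12.75, 12.70, 12.67, 12.78 and 12.75 with PMCA4b. The lowest knockout array thus lay above the highest PMCA4b array, and the lowest PMCA4b array above the highest wild-type array. With vector A the probe read 10.14, 10.13, 10.09, 10.30 and 10.21, and with vector B 9.86, 9.71, 9.49 and 9.81. No 2 of the 5 groups overlapped for this probe.

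Fitted to all 24 arrays with limma and adjusted over all tested probes, Acta2 probe 3 was 5.57-fold higher in knockout than in wild-type cells (log2 difference 2.48, SE 0.0806, limma adjusted p = 6.69e-18). Probes 2 and 4 gave 4.40-fold and 5.13-fold. In PMCA4b cells probe 3 was 2.81-fold below knockout (limma adjusted p = 7.69e-14) and 1.98-fold above wild type (limma adjusted p = 1.41e-10). Against the average of both vectors, PMCA4b cells were 6.88-fold higher by probe 3, 6.56-fold by probe 4, 2.80-fold by probe 2 and 2.27-fold by probe 1. The probes thus differed in the size of the vector step while sharing its direction. Vector cells lay 19.4-fold below knockout by probe 3 and 19.6-fold by probe 4, but 7.20-fold by probe 2. In the order of the groups, each step passed the test for probes 3 and 4. For probes 1 and 2 the step from vector A to vector B did not pass (limma adjusted p = 0.762 and 0.486).

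The first Acta2 probe reached the top of the scale in knockout cells. Before normalization it read 64258, 66321, 63883, 63351 and 59846 intensity units on the knockout arrays, which is 93.5% to 100% of the brightest probe of the same array. On knockout replicate 2 it was itself the brightest probe, at 16.016, the highest log2 value any array can take after quantile normalization. A value within 0.5 log2 units of that top was counted as near it, and 24 probes of each array lay there. All 5 knockout values of Acta2 probe 1 (15.95, 16.02, 15.94, 15.95 and 15.94) were near the top, and none in another group was. PMCA4b arrays lay 0.81 to 1.08 below it, at 15.21, 15.05, 14.94, 15.17 and 15.02. Wild-type arrays read 14.58, 14.48, 14.61, 14.69 and 14.44. The vector A arrays read 13.89, 13.92, 13.95, 13.85 and 13.92, and the vector B arrays 13.90, 13.91, 13.89 and 13.83. The knockout fold of this probe is therefore a bound: at least 2.64-fold above wild type (limma adjusted p = 1.09e-16), at least 1.84-fold above PMCA4b and at least 4.19-fold above the vectors. No other member probe lay near the top of the scale.

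**Figure D2:**
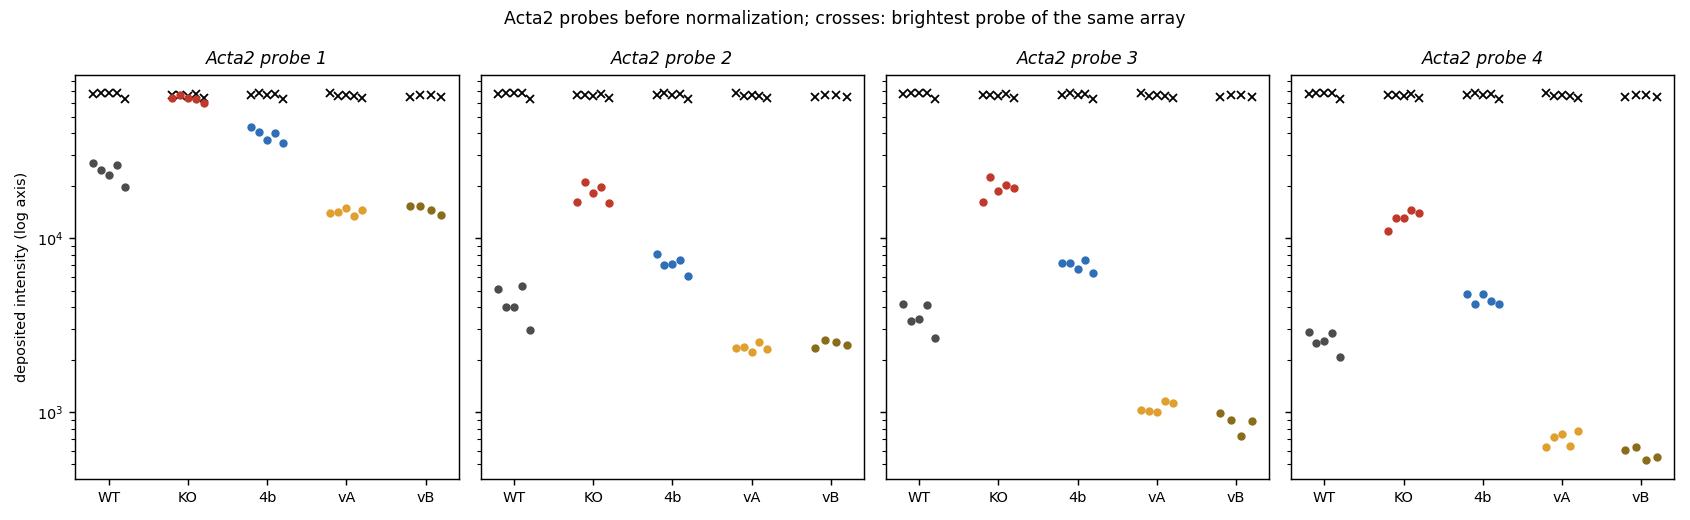
Deposited intensities of the 4 Acta2 probes before normalization (log axis), one point per array and group, with a cross for the brightest probe of the same array. In knockout cells the points of probe 1 (59846 to 66321) meet the crosses, whereas probes 2 to 4 lie below them in every group.

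Probes 2 and 4 of Acta2, far from the top, separated the groups too. Probe 2 spanned 11.73 to 12.29 in wild-type, 13.95 to 14.26 in knockout and 12.67 to 12.91 in PMCA4b cells, 11.23 to 11.43 with vector A and 11.12 to 11.31 with vector B. Its vector groups overlapped each other and no other group. Probe 4 spanned 11.12 to 11.43, 13.41 to 13.90, 11.92 to 12.19, 9.43 to 9.69 and 9.03 to 9.21 in the same order, with no overlap.

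Acta1, the actin of skeletal muscle, was detected on the 5 knockout arrays and on none of the other 19. It read 8.54, 9.42, 8.88, 8.95 and 9.21 in knockout cells, against 5.07, 4.69, 4.84, 5.28 and 4.95 in wild-type cells. With PMCA4b it read 5.40, 5.43, 5.55, 5.86 and 5.42. The vector A values were 4.74, 4.71, 4.65, 4.70 and 4.72, and the vector B values 4.71, 4.87, 4.70 and 4.72. Since these 4 groups were undetected, the fold is given against the lowest level that counted as detected on each array (6.16 to 6.57): at least 6.03-fold higher in knockout than in wild-type cells (limma adjusted p = 2.37e-18). On the same footing PMCA4b cells were at least 5.71-fold and vector cells at least 6.39-fold below knockout. The probe entered the test through the knockout arrays alone and had to differ there, so the knockout p-value is a description. The PMCA4b values did not overlap those of the wild-type or vector groups (limma adjusted p = 3.25e-04 against wild type), but all of them were undetected and no fold is given.

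Actg2, the gamma-actin of visceral smooth muscle, followed the same detection pattern at a lower reading. It read 6.69, 7.31, 7.09, 7.07 and 6.98 in knockout cells and 4.87, 4.79, 4.87, 4.76 and 4.86 in wild-type cells. PMCA4b cells read 5.07, 4.89, 5.10, 5.01 and 4.89, vector A cells 4.67, 4.84, 4.78, 4.82 and 4.79, and vector B cells 4.82, 4.73, 4.89 and 4.93. Knockout was at least 1.54-fold above wild type (limma adjusted p = 3.49e-17), at least 1.46-fold above PMCA4b and at least 1.63-fold above the vectors. Actg2, too, entered the test through the knockout arrays alone, so the knockout p-value is a description. No neighbours among the 4 undetected groups passed the test.

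Actin genes are near-identical in their coding parts, and probe sequences were not used here, so how far an actin probe reads a sister actin was not tested. In PMCA4b cells, where Acta2 probe 1 averaged 15.08 ± 0.111 (SD, n = 5), Acta1 and Actg2 were detected on 0 of 5 arrays. In knockout cells, where both were detected, Acta2 probe 1 averaged 15.96 ± 0.0328 (SD, n = 5), near the top of the scale. Over the 24 arrays Acta1 correlated with the Acta2 probes at 0.848 to 0.931, and Actg2 at 0.792 to 0.888 (Pearson's r). Detection on every knockout array and on no other was shared by 42 of the 25697 probes, 3 of them members: Acta1, Actg2 and the second Mustn1 probe.

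Tagln encodes transgelin (SM22), a calponin-related protein that bundles actin filaments. It was detected on all wild-type and knockout arrays, on 4 of 5 PMCA4b arrays and on no vector array. Wild-type arrays read 8.50, 8.68, 8.57, 8.70 and 8.07, and knockout arrays 10.12, 10.32, 10.01, 10.15 and 9.93. PMCA4b arrays read 6.73, 6.52, 6.70, 6.60 and 6.14, of which only the last was undetected. Vector A arrays read 5.48, 5.90, 5.21, 5.26 and 5.76, and vector B arrays 4.86, 5.02, 4.95 and 4.96. No 2 of the 5 groups overlapped, and PMCA4b lay below wild type, the reverse of its place for Acta2.

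Tagln was 3.04-fold higher in knockout than in wild-type cells (log2 difference 1.60, SE 0.133, limma adjusted p = 3.96e-10). PMCA4b cells were at least 3.73-fold below wild type (limma adjusted p = 4.76e-12) and at least 11.3-fold below knockout (limma adjusted p = 5.78e-17). They were at least 1.16-fold above the vectors, where the undetected side leaves little room for a bound. Vector cells were at least 13.8-fold below knockout (limma adjusted p = 8.63e-21). The 4 steps in the order knockout, wild type, PMCA4b, vector A, vector B each passed the test, the last between undetected groups.

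Calponin, myosin light chain kinase and smooth muscle myosin gave no usable level. Cnn1 read between 4.93 and 5.79 over the 24 arrays and Myh11 between 4.69 and 5.04. The first Mylk probe was detected on 1 array, vector B replicate 1, at 6.36, where the other vector B arrays read 5.70, 6.14 and 5.53. The second Mylk probe averaged 5.65 ± 0.156 (SD, n = 4) with vector B and at most 5.15 in another group, undetected throughout. These 4 probes and the third Tpm2 probe were not tested, and their values set no order among the groups.

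The tropomyosins, coiled-coil proteins that cover the actin filament, did not follow the actins in one pattern. Tpm1 read 13.45, 13.50, 13.58, 13.56 and 13.40 in wild-type, 13.77, 13.76, 13.62, 13.86 and 13.77 in knockout, and 13.78, 13.83, 13.91, 14.00 and 14.00 in PMCA4b cells. It read 13.41, 13.35, 13.43, 13.39 and 13.37 with vector A and 13.69, 13.76, 13.80 and 13.72 with vector B. Knockout lay above wild type without overlap, and vector B lay among the knockout values. Knockout was 1.19-fold above wild type (log2 difference 0.26, SE 0.0526, limma adjusted p = 2.26e-04) and PMCA4b 1.33-fold above it (limma adjusted p = 3.16e-07). PMCA4b passed the test against knockout at 1.11-fold (limma adjusted p = 0.0146), but its adjusted p was 0.0615 in a fit of these groups alone and 0.0566 without knockout replicate 3. In the order PMCA4b, knockout, vector B, wild type, vector A, the steps from knockout to vector B and from wild type to vector A did not pass (limma adjusted p = 0.856 and 0.0638).

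Tpm2 has probes that disagreed. The first read 12.07, 11.95, 12.01, 12.05 and 12.07 in wild-type and 12.47, 12.39, 12.40, 12.53 and 12.67 in knockout cells. It read 11.22, 11.14, 11.28, 11.25 and 11.41 with PMCA4b, 11.26, 11.29, 11.28, 11.19 and 11.28 with vector A, and 10.80, 10.90, 11.10 and 11.01 with vector B. PMCA4b and vector A could not be told apart (difference 0.00, limma adjusted p = 0.979), and both lay below wild type and knockout. This probe was 1.38-fold higher in knockout than in wild-type cells (limma adjusted p = 9.68e-07), and PMCA4b was 2.35-fold below knockout (limma adjusted p = 1.62e-14) and 1.71-fold below wild type.

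The second Tpm2 probe, close to the detection limit, was detected on 1 wild-type array, all knockout, PMCA4b and vector B arrays, and no vector A array. It read 6.37, 6.08, 6.44, 6.14 and 6.17 in wild-type, 6.70, 6.80, 6.61, 6.63 and 6.92 in knockout and 6.86, 6.98, 6.62, 6.85 and 7.18 in PMCA4b cells. It read 5.08, 5.20, 5.16, 5.25 and 5.35 with vector A and 6.94, 6.87, 6.97 and 6.99 with vector B. The vectors thus lay at opposite ends for this probe, so an average over them describes neither. Vector B was at least 1.50-fold above vector A by probe 2 (log2 difference 1.73, limma adjusted p = 3.90e-13), while probe 1 was 1.24-fold lower in vector B (limma adjusted p = 4.12e-04). With the set of neighbouring columns in which each array lies as a block, the probe 1 difference was -0.15 (limma adjusted p = 0.0990) and that of probe 2 was 1.90. PMCA4b was at least 1.40-fold above wild type by probe 2 and below it by probe 1. Which Tpm2 transcripts the probes read was not tested. The third probe read between 4.85 and 6.04 and was detected on no array.

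Mustn1 encodes a small nuclear protein of the musculoskeletal system that was found in regenerating bone and muscle. Its first probe read 8.36, 8.38, 8.36, 8.16 and 8.35 in wild-type and 10.44, 10.58, 10.55, 10.28 and 10.46 in knockout cells. It read 6.74, 7.09, 6.68, 6.90 and 6.98 with PMCA4b, and was undetected at 5.18, 5.57, 5.08, 5.42 and 5.25 with vector A and at 5.58, 5.64, 5.75 and 5.68 with vector B. No 2 groups overlapped, and the order of the 3 detected groups was that of Tagln. Detection on every wild-type, knockout and PMCA4b array and on no vector array was shared by 17 probes of the array. Probe 1 was 4.40-fold higher in knockout than in wild-type cells (log2 difference 2.14, SE 0.0863, limma adjusted p = 4.49e-16). PMCA4b was 12.0-fold below knockout (limma adjusted p = 1.07e-20), 2.72-fold below wild type (limma adjusted p = 4.15e-13) and at least 1.47-fold above the vectors. Vector cells lay at least 17.6-fold below knockout (limma adjusted p = 1.72e-24).

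The second Mustn1 probe was detected in knockout cells alone, at 8.99, 9.38, 9.25, 9.13 and 9.39. Wild-type arrays read 6.16, 5.79, 6.05, 6.13 and 6.14, PMCA4b arrays 5.62, 5.25, 5.60, 5.99 and 5.46, vector A arrays 5.45, 5.35, 5.49, 5.12 and 5.24, and vector B arrays 5.59, 5.50, 5.65 and 5.54. Knockout was at least 7.05-fold above wild type by this probe (limma adjusted p = 1.55e-17). It entered the test through the knockout arrays alone and had to differ, so the p-value is a description. The wild-type, PMCA4b and vector groups were all undetected and are not ordered by this probe.

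Knockout against wild type asks what differs between untreated knockout cells and wild-type cells. All 12 tested member probes were higher in knockout cells, in a comparison where 55.5% of all tested probes were called, 25.4% higher and 30% lower. The median log2 difference of the 12 probes was 2.14, against -0.04 over all tested probes. With the brightest tested probe standing for each of the 7 genes, it was 1.60. Acta1, Actg2 and Mustn1 probe 2 entered the test through the knockout arrays alone and had to differ, so the count and the medians are descriptions. The 5 untested probes had no level in either group. The comparison does not describe all cells without PMCA4, since the vector cells carry the knockout too. Acta2 probe 3 was 2.96-fold lower in vector A and 4.07-fold lower in vector B than in wild-type cells. Tagln was at least 4.44-fold and at least 4.63-fold lower there. Tpm1 and Tpm2 probe 2 were higher in vector B than in wild-type cells.

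PMCA4b against vector asks what the returned pump changes among electroporated knockout cells. Of the 12 probes, 11 were called higher with PMCA4b and none lower, where 78.3% of all tested probes were called, 40.8% higher and 37.6% lower. The calls of Acta1 and Actg2 were made between undetected groups. With at least 1 side above background, the 4 Acta2 probes, Tagln, Tpm1 and Mustn1 probe 1 were higher than the average and passed the test against each vector. Each Tpm2 probe was called against the average and passed against 1 vector only. Probe 1 did not differ from vector A beyond the spread (limma adjusted p = 0.979), nor probe 2 from vector B, which lay 0.04 above PMCA4b on the log2 scale (limma adjusted p = 0.698). The averaged difference of Tpm2 probe 1 was 1.11-fold (limma adjusted p = 0.0142), and its adjusted p was 0.118 with the vectors pooled as 1 group and 0.0658 without PMCA4b replicate 5. The median log2 difference of the 12 probes was 1.00, against 0.04 over all tested probes, and 0.81 with 1 probe per gene. These medians include probes undetected on both sides (Acta1, Actg2 and, in the first, Mustn1 probe 2) and are descriptions.

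PMCA4b against untreated knockout cells, which differ in electroporation as well, gave 10 lower probes, 1 higher (Tpm1) and 1 not called (Tpm2 probe 2, limma adjusted p = 0.0919), where 67.7% of all tested probes were called, 35.9% higher and 31.8% lower. Their median log2 difference was -1.53, against 0.04 over all tested probes, and -2.03 with 1 probe per gene. The average of both vectors against knockout gave 12 lower probes, where 74.1% were called, 36.8% higher and 37.2% lower. The median was -3.31, against 0.00 over all tested probes, and -2.22 with 1 probe per gene. For the tropomyosins this average did not describe vector B, in which Tpm1 was not called against knockout (log2 difference -0.01, limma adjusted p = 0.856) and Tpm2 probe 2 was higher than in knockout (log2 difference 0.21, limma adjusted p = 0.0486). PMCA4b and vector cells were compared here with the same knockout arrays. Acta1, Actg2 and Mustn1 probe 2 entered the test through those arrays alone and had to be lower in both comparisons. The counts and medians are therefore descriptions.

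Against wild type, PMCA4b cells differed in both directions: 7 probes were higher (Acta1, the 4 Acta2 probes, Tpm1 and Tpm2 probe 2) and 4 were lower (Tagln, Tpm2 probe 1 and both Mustn1 probes), where 67.7% of all tested probes were called, 34.1% higher and 33.7% lower. The Acta1 and Mustn1 probe 2 calls lay between undetected groups. Vector B against vector A gave 3 higher probes (Tpm1, Tpm2 probe 2 and Mustn1 probe 1), 4 lower (Acta2 probes 3 and 4, Tagln and Tpm2 probe 1) and 5 not called, where 50.3% of all tested probes were called, 26% higher and 24.4% lower. The Tagln and Mustn1 calls there were made between undetected groups, and the Tpm2 probe 1 call was lost with the column set as a block.

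**Figure D3:**
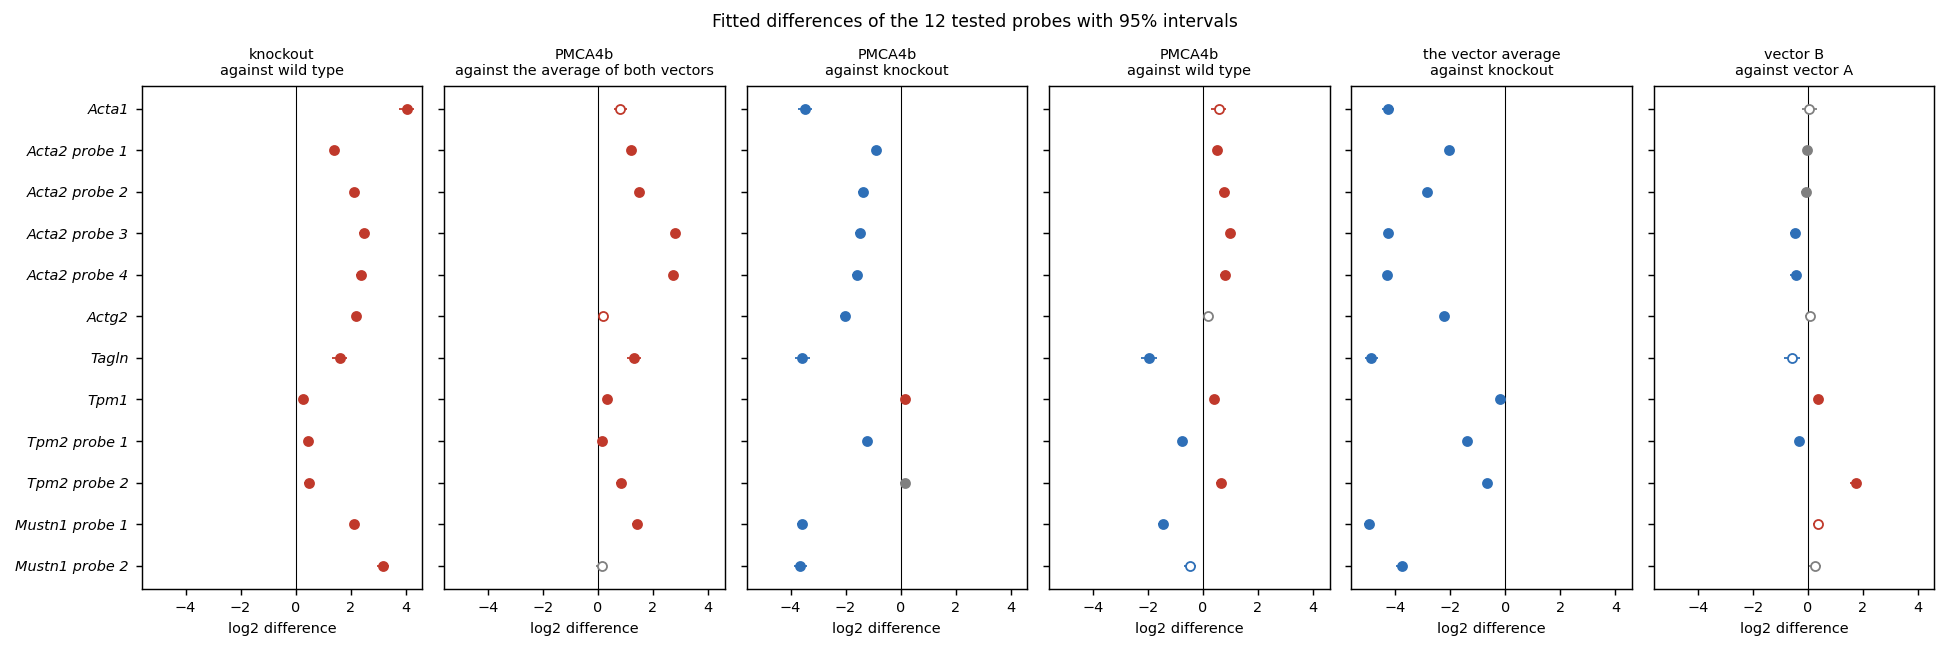
Fitted log2 differences of the 12 tested probes in each of the 6 comparisons, with 95% intervals. Open points mark differences between groups that were both undetected. All 12 points lie above 0 for knockout against wild type and below 0 for the vector average against knockout, and the points fall on both sides for PMCA4b against wild type and for vector B against vector A.

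The intensity table lists the arrays in 3 sets of 8 neighbouring columns, and the labels do not say what the sets are. Sets 1 and 2 each hold 2 arrays of wild type, knockout, PMCA4b and vector B, and set 3 holds all 5 vector A arrays with replicate 5 of wild type, knockout and PMCA4b. Within sets 1, 2 and 3 the knockout minus wild type difference of Acta2 probe 3 was 2.44, 2.37 and 2.77. It was 1.63, 1.45 and 1.86 for Tagln, and 2.14, 2.15 and 2.11 for Mustn1 probe 1. PMCA4b minus knockout was -1.43, -1.50 and -1.61 for Acta2 probe 3 and -3.59, -3.43 and -3.79 for Tagln. Each of these kept its direction in all 3 sets. PMCA4b minus knockout for Tpm1 was 0.04, 0.22 and 0.23. Since the vectors lie in different sets, they were also compared in a fit with the set as a block, which bridges them through the other groups. There 6 of the 12 member probes were called between the vectors, in place of 7, without Tpm2 probe 1.

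The likeness of profiles over the 24 arrays is given as Pearson's r of log2 values without a test, since arrays of a group share that group. The 4 Acta2 probes correlated with each other at 0.969 to 0.997. Acta1 and Actg2 correlated at 0.988, which only restates that both were detected in knockout cells and on none of the other 19 arrays. Tagln correlated with Mustn1 probe 1 at 0.976 and with Tpm2 probe 1 at 0.966. Tpm1 stood apart, at 0.112 with Tagln and -0.0161 with Tpm2 probe 1, and was most like Tpm2 probe 2 (0.847). Each gene's brightest probe was also set against all other named genes, and the nearest are given. Nearest to Acta1 was Grb10 (0.984), an adaptor of insulin-type receptors, and to Actg2 the exchange factor Rasgrf1 (0.989), and for these members any gene high in knockout cells alone is near. Nearest to Acta2, by probe 1 with its knockout values near the top of the scale, were the transcriptional regulator Cited2 (0.981) and cyclin E1 (Ccne1, 0.970). Tagln was nearest to Arpc5 (0.978), a subunit of the actin-nucleating Arp2/3 complex, and to Fhl2 (0.973). Mustn1 was nearest to Itgb1, the beta-1 integrin (0.981), Tpm2 to the growth factor Fgf10 (0.979) and Tpm1 to Naa25 (0.930).

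Further parts of the contractile apparatus were read from a list of 44 genes, of which 35 were on the array and 23 were tested. In knockout against wild type 16 were higher, 2 lower and 5 not called, with a median log2 difference of 0.27, where 25.4% of all tested probes were higher and 30% lower. Fhl1, a LIM-domain protein of muscle, was 4.32-fold higher (8.61 ± 0.145 in wild type and 10.73 ± 0.147 in knockout, SD, n = 5 each, limma adjusted p = 7.83e-16). Csrp2, a LIM protein of smooth muscle, was 2.30-fold higher (limma adjusted p = 8.35e-15). Myh10, a nonmuscle myosin heavy chain, was 1.60-fold lower and the tropomyosin Tpm3 1.26-fold lower. In PMCA4b against knockout 17 were lower and 1 higher (Vcl), where 31.8% of all tested probes were lower and 35.9% higher. Among the lower were Csrp2 (3.38-fold lower), Fhl1 (3.40-fold lower) and the actin-bundling Palld (2.12-fold lower). In vector cells against knockout 15 were lower and 4 higher (37.2% and 36.8% over all tested probes), with Csrp2 3.55-fold, Fhl2 2.87-fold and Tpm3 2.48-fold lower. PMCA4b against vector split evenly, with 8 higher and 8 lower (40.8% and 37.6% over all tested probes). Tpm3 was 2.46-fold higher, Palld 2.40-fold lower and Fhl1 2.91-fold lower with PMCA4b. Against wild type, PMCA4b had 5 higher and 12 lower (34.1% and 33.7% over all tested probes), among them vinculin (Vcl, 1.69-fold higher), Myh10 (1.84-fold lower) and the myosin light chain Myl12b (1.46-fold lower). Vector B against vector A had 4 higher and 7 lower (26% and 24.4% over all tested probes). The smallest adjusted p values there were those of Actn1 (1.47-fold lower), Csrp1 (1.43-fold higher) and Smtn (1.32-fold higher), and 7 in all were called with the column set as a block.

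Of 36 genes that control contractile genes, 31 were on the array and 19 were tested. Knockout against wild type had 6 higher and 4 lower, close to the 55.5% called over all tested probes. In the other comparisons, too, the called share of the list can be read against the 78.3% (PMCA4b against vector), 67.7% (PMCA4b against knockout or wild type), 74.1% (vector against knockout) and 50.3% (vector B against vector A) called over all tested probes, and the counts are no result about the list. In knockout against wild type Mef2a, a muscle transcription factor, was 2.19-fold higher, Klf4, a repressor of smooth muscle genes, 1.93-fold higher and the receptor Tgfbr1 1.80-fold lower. Srf itself read 9.95 ± 0.0907 in wild-type and 9.98 ± 0.114 in knockout cells (SD, n = 5 each), which differ by 0.03 on the log2 scale (SE 0.0663, limma adjusted p = 0.745). Klf4 averaged 8.67 in wild-type, 9.61 in knockout, 10.86 in vector A and 11.10 in vector B cells and read 9.84 to 10.15 in PMCA4b cells. A part of Klf4 or Srf in the members' differences was not tested. PMCA4b against vector had 7 higher and 10 lower, with Tgfbr2 3.76-fold lower, Prrx1 2.08-fold lower and the actin-severing Cfl1 2.11-fold higher. PMCA4b against knockout had 9 higher and 6 lower, with Mef2c at least 6.24-fold lower, Tgfbr1 2.03-fold higher and Tgfbr2 1.77-fold lower. PMCA4b against wild type also had 9 higher and 7 lower, with Mef2c at least 3.90-fold lower, Klf4 2.52-fold higher and Tgfbr2 1.67-fold lower. Vector against knockout had 8 higher and 7 lower, with Mef2c 4.07-fold lower, Tgfbr1 2.58-fold higher and Tgfbr2 2.13-fold higher. Klf4 was 2.59-fold higher there. Vector B against vector A had 7 higher and 3 lower, with Klf5 1.62-fold and Notch3 at least 1.28-fold higher and Prrx1 1.30-fold lower.

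**Figure D4:**
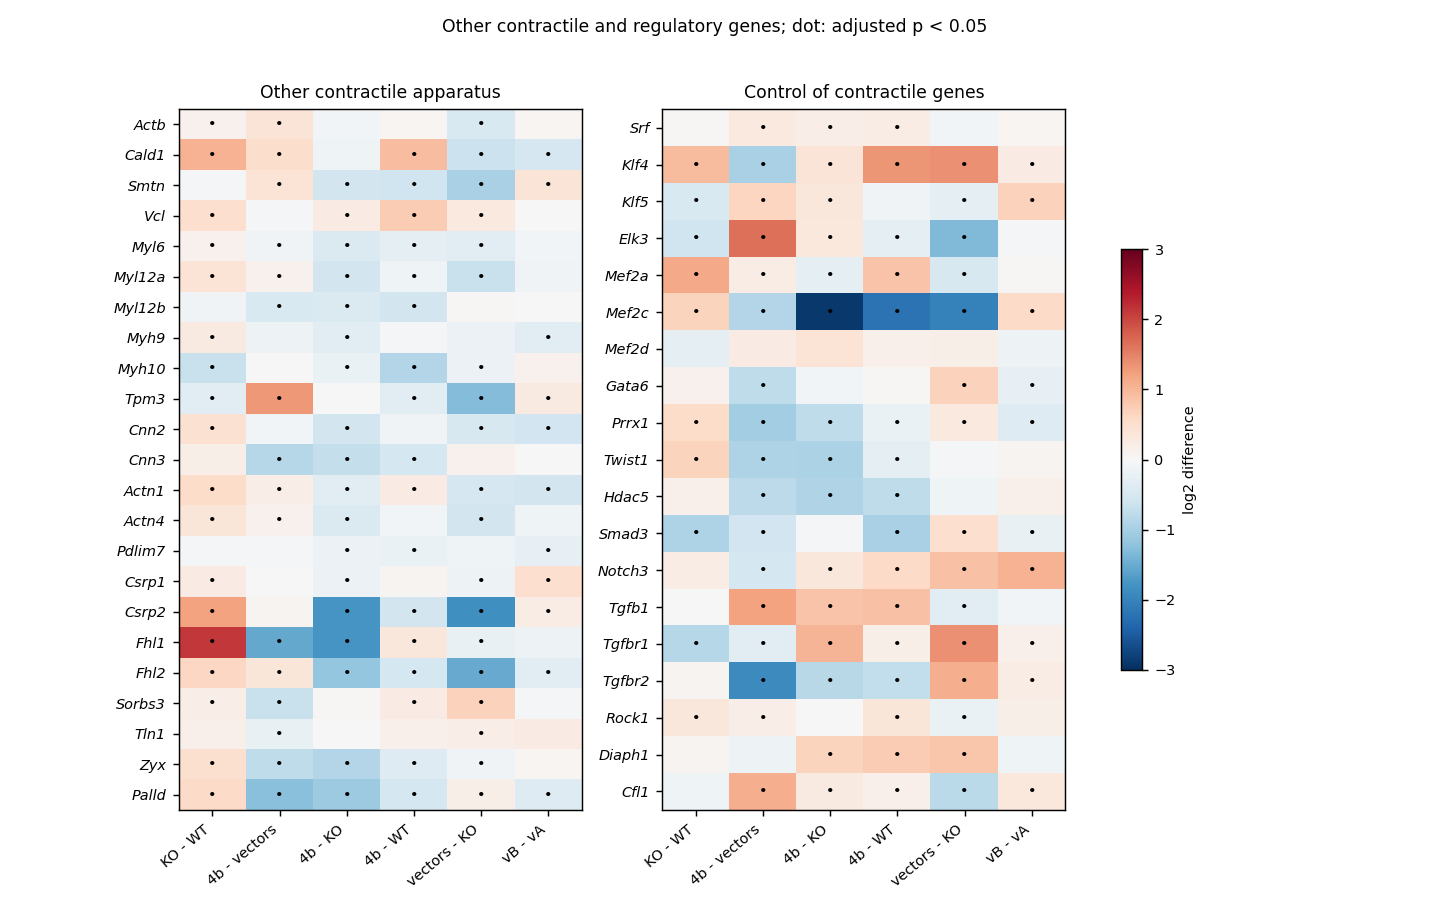
Fitted log2 differences of the tested genes of the other contractile apparatus and of the control list (rows) in the 6 comparisons (columns), as colour, with a dot where the adjusted p is under 0.05. Most rows of the contractile apparatus are higher in knockout than in wild-type cells (16 of 23) and lower in PMCA4b than in knockout cells (17 of 23), against 25.4% and 31.8% of all tested probes.

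Markers of other cell types were read as well, and they did not share 1 pattern with the members. The 11 fibroblast markers on the array summed to 7532 to 9116 intensity units in wild-type, 39556 to 45229 in knockout and 15140 to 15361 in PMCA4b cells, 15352 to 15642 with vector A and 18420 to 19928 with vector B. Thy1 alone held 27869 to 32764 of the knockout sum, and without it the other 10 markers summed to 6889 to 8310 in wild-type, 11271 to 12777 in knockout and 8561 to 9146 in PMCA4b cells, 12683 to 13067 with vector A and 16384 to 17846 with vector B. Of the 8 tested, 7 were higher and 1 (Pdgfra) was lower in knockout than in wild-type cells, where 55.5% of all tested probes were called and 25.4% were higher. Pdgfra averaged 11.23 in wild-type and 10.76 in knockout cells, 8.10 with vector A and 8.31 with vector B. It was detected on no PMCA4b array. Lum and Fap were detected on no array, and Dcn and Dpt on every array outside wild type. The knockout group was thus highest in the sum with Thy1 and below vector B without it, and the vectors lay above wild type in both sums and below it in Acta2. The part of the markers in the members' differences was not tested. Of 25 skeletal and cardiac muscle markers 20 were detected on no array, Myod1, Ckm and Ttn among them, and the list summed to 438 to 622 intensity units in knockout and 296 to 655 in wild-type cells. Tnnc1 was detected on all 24 arrays and Myom1 on 17. Of 8 endothelial markers 7, with Pecam1 and Cdh5, were undetected on all arrays and Eng was detected on all. Cd14 was the leukocyte marker detected on all arrays, and Ptprc was detected on none. The 7 pericyte markers summed to 856 to 1078 in wild-type, 1489 to 1740 in knockout and 1014 to 1211 in PMCA4b cells. With vector A they summed to 1099 to 1253 and with vector B to 978 to 1125. Cspg4 and Pdgfrb were detected on all arrays and Rgs5 on none.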

How the data were processed

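RNA was measured on 24 Illumina bead arrays. The authors deposited an intensity for each probe and array, background-subtracted and not normalized (28.28% to 30.86% of values lie below 0), with a detection p-value beside it. The authors also deposited log2 values that rank the probes of an array as its intensities do (Spearman 1). How the scanner output was made, and how those log2 values were normalized, was not stated in the labels used. Genes were named from the platform annotation (23978 probes with 1 gene, 1719 with none).

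The neqc function (limma 3.58.1, R 4.3.3) corrected the intensities with a background inferred from detection p-values and an offset of 16, then equalized quantiles between arrays. Probes detected at p under 0.01 on at least 4 arrays were fitted with a mean per group (19 residual degrees of freedom), and two-sided moderated tests were adjusted by Benjamini-Hochberg over all 11139 probes and called at an adjusted p under 0.05. A fold against undetected arrays is a bound, in which the lowest detected value of an array replaces a reading below it. The fit was also run on simulated data with known changes, drawn with independent normal noise for each probe. No column sets, detection limit or top of the scale were simulated, so the run checks the calculation only. Data were handled with the R package data.table, version 1.17.8, and pandas 2.3.3 (Python 3.11.15), and figures matplotlib 3.10.9.

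Named genes were all members, the 3 list genes with the smallest adjusted p per comparison, the 2 genes most like each member and detected cell type markers. Not all of the last 2 kinds are printed. Outside this rule are Klf4 over all groups and in vector against knockout, Tpm3 in knockout against wild type and Vcl in PMCA4b against knockout. Srf was added to the text after its values were seen. In a gene list, the tested probe with the highest mean stood for its gene. The members and lists were chosen with earlier results of these data known. Same-numbered arrays of different groups had deviations from the group means that correlated at -0.04 to 0.46, so the numbers were not taken as pairs. Alternatives covered the offset, scaling, the authors' log2 values, the filter, the probe rule, the arrays in the fit, blocks, the variance model and leaving out each array. The column sets were looked at after seeing the data.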

Additional observations from a re-analysis of the deposited data

Results flagged for a closer look

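In 4 of the 85 groups of 4 or 5 arrays that were looked at, 1 array stood apart from the rest of its group by Dixon's criterion, and chance flags about 5% of groups. Acta1 read 4.87 in vector B replicate 2, against 4.70 to 4.72 on the other vector B arrays, all undetected. Acta2 probe 1 read 16.016 in knockout replicate 2, against 15.94 to 15.95 on the other knockout arrays, and all 5 lie near the top of the scale. The first Mylk probe read 5.29 in wild-type replicate 1, against 4.80 to 4.92 on the other wild-type arrays, all undetected. The first Mustn1 probe read 8.16 in wild-type replicate 4, against 8.35 to 8.38 on the other wild-type arrays, and its lowest knockout array read 10.28.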

How the results depend on the processing

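No member's difference that was called, in the main fit or in an alternative, turned its direction under the alternatives run. Between the vectors, the log2 differences of Acta1 (-0.05 to 0.20) and Actg2 (-0.02 to 0.20) changed sign. Both genes were undetected there, and neither difference was called. With 1 probe standing for each gene, 7 of 7 member genes were called in knockout against wild type, PMCA4b against vector, PMCA4b against knockout and vector against knockout, 6 in PMCA4b against wild type and 4 in vector B against vector A. With the column set as a block, chosen after seeing the data, 7 of 23 further contractile genes were called between the vectors in place of 11. With the replicate number as a block, 12, 11, 11, 11, 12 and 7 of the 12 member probes were called in the order of the comparisons in the report, the counts found without it, and no member's call changed. The numbers do not pair the samples. Replicate 5 of wild type, knockout and PMCA4b deviated together (0.405 to 0.461), and these arrays share a column set. Leaving out 1 array gave 12 to 12 calls in knockout against wild type, 10 to 12 in PMCA4b against vector and in PMCA4b against knockout, and 7 to 8 in vector B against vector A.

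Calls that changed were small differences. Actg2 in PMCA4b against vector, between undetected groups, had adjusted p = 0.135 with an offset of 50 and 0.137 with a robust variance trend (limma). Actg2 in PMCA4b against wild type passed with the authors' log2 values (limma adjusted p = 0.0123). Mustn1 probe 2 in PMCA4b against vector passed without PMCA4b replicate 2 (limma adjusted p = 0.0374), and Tpm2 probe 2 in PMCA4b against knockout passed without PMCA4b replicate 3 (limma adjusted p = 0.0159). The causes were not tested. Median scaling moved the median of all probes by at most 0.05 and the share of higher calls in knockout against wild type from 45.9% to 39.5%. Readings under the detection limit, and Acta2 probe 1 in knockout cells, bound a difference only from 1 side.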
